A study of Mus musculus with 9 samples.

Results

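The comparison described here set aortas of mice given a helper-dependent adenoviral vector carrying human apolipoprotein E3 (HDAd-gE3) against aortas of mice given phosphate buffered saline (PBS), the vehicle. It asks what vector and transgene changed together. Its members were the 3 arrays of each of these groups, 6 of the 9 arrays of the series, and it was read across all 18193 genes that had a probe set annotated to 1 gene. The remaining 3 arrays came from mice given the same kind of vector without a transgene (HDAd-0). Their values are given beside the others for many of the genes and lists. All mice were female, on a C57BL/6 background, and lacked apolipoprotein E (APOE-/-), so the PBS mice carried the deletion too. They were bought at 8 weeks of age and fed for 30 weeks on chow enriched in cholesterol (0.2%) and coconut oil (10%). Each then received 1 injection into the tail vein and was killed 10 days later. Every array measured RNA pooled from 3 aortas, cut from the sinus to the arch, so an array stands for a pool and p-values measure the spread between pools.

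Apolipoprotein E is a ligand by which the liver takes cholesterol-rich remnant particles out of the blood. Mice without it have very high plasma cholesterol, and their aortic wall fills with monocyte-derived macrophages that store lipid as foam cells. A helper-dependent vector is an adenovirus stripped of its viral genes. Given by vein it mainly enters the liver, so the wall of the aorta meets the transgene mostly as a protein that arrives with the blood. The wall itself is built of smooth muscle cells and elastic matrix, lined by endothelium, and bulk RNA of it also holds RNA of the blood cells, fat, nerve and heart muscle that come with the cut piece.

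The deposited values are log2 signals, so a difference of 1 is a doubling. Array medians lay between 6.67 and 6.77 and no pair of arrays correlated below 0.991 over the probe sets. The labelled tissue was borne out by its markers: the smooth muscle actin Acta2 read 13.88 to 13.98 on the 9 arrays, and Myh11, the smooth muscle myosin heavy chain, 13.29 to 13.55. The macrophage lysozyme Lyz2 read 13.77 to 13.90. Apoe read 7.05, 7.08 and 6.72 with HDAd-gE3 and 7.05, 6.79 and 6.80 with PBS. Its probe set is for the mouse gene, which all these mice lack, and the vector carries the human gene, so it does not test the labels. HDAd-gE3 replicate 4 stood apart from the other arrays in genes of neutrophils and of red cell precursors, as given beside the results it touches. RNA quality, read as how far the 3' control probe sets for Actb and Gapdh lay above the 5' ones on the log2 scale, was 0.722, 0.673 and 0.809 with HDAd-gE3 and 0.785, 0.896 and 0.917 with PBS.

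Of the 18193 genes, 23 (0.126%) passed the threshold, an adjusted p under 0.05 in a limma model of all 9 arrays. There were 14 higher with HDAd-gE3 (0.077%) and 9 lower (0.0495%), by log2 sizes of 0.48 to 2.47. The higher genes were led by Trim10, Slc4a1, Car2, Apol11b and Slc25a37. The lower genes were led by Pnpla3, Coch and Ccl24. In each of the 23 the 3 HDAd-gE3 arrays lay on one side of the 3 PBS arrays, which held for 23.9% of all genes. Genes picked by a small p on these same arrays are nearly bound to do so, so this adds no support to the calls. At an unadjusted p under 0.05 there were 2402 genes (13.2%), 1080 higher (5.94%) and 1322 lower (7.27%). With arrays centred on their medians the same split was 657 higher and 1999 lower. The mean was higher with HDAd-gE3 in 45.4% of all genes and lower in 54.6%, the shares to set beside the list counts below. The lists were chosen with earlier results of these data known. Their counts of genes past the threshold therefore describe the lists and are no test of them. The volcano plot shows how the 23 genes lie at the edge of a broad cloud, with Coch alone at the top. Just inside the threshold were Pnpla3 and Sdf2l1 (adjusted p = 0.0444 and 0.0461). Just outside were the clock output gene Dbp at a difference of 0.48 (adjusted p = 0.0547), Cd200r4 at -0.47 (0.0564) and Lin7a at -0.86 (0.0586). Next by p the rule for named genes took Nrde2 at 0.48 (adjusted p = 0.0616), and Hk3 at -0.58 and Tyrp1 at -1.91, both described below. It also took Ccdc134, Plpp6 and Lpxn at -0.43, -0.39 and -0.49 (adjusted p = 0.0689 each). Second probe sets of Nrde2 and Ccdc134 had the opposite sign, at -0.072 and 0.089.

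**Figure D1:**
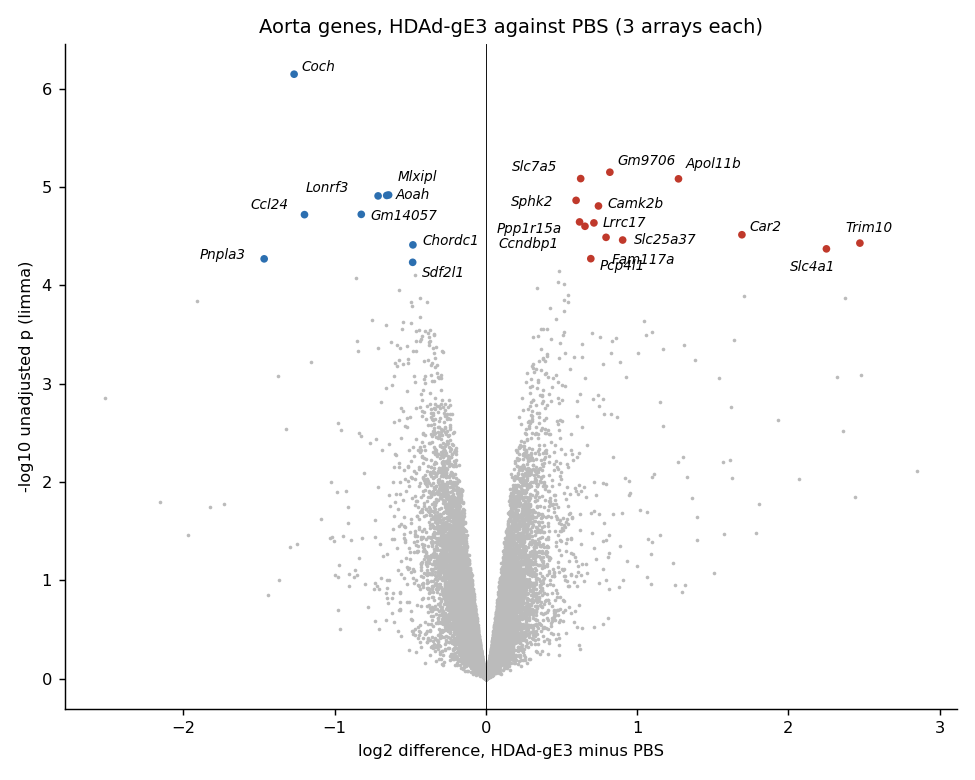
Each point is 1 of 18193 genes, with the log2 difference of HDAd-gE3 minus PBS (3 arrays each) on the x axis and -log10 of the unadjusted limma p on the y axis. The 14 named red genes are higher and the 9 named blue genes lower at an adjusted p under 0.05, and Coch has the smallest p.

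These calls rested on few arrays. Leaving out HDAd-gE3 replicate 2, 3 or 4 gave 0, 0 and 1 higher calls, of which 0 were among the 14, and 1, 0 and 1 lower calls, each among the 9. Leaving out PBS replicate 1, 3 or 4 gave 0 in either direction. All 23 genes kept their direction in each of these fits. The HDAd-0 arrays took part only through the shared estimate of spread, and leaving out HDAd-0 replicate 5 gave 8 higher calls, 6 of them among the 14. A replicate block left 0 calls, and a fit of only the 6 arrays compared made 8 higher and 5 lower calls, of which 5 and 1 were among the 14 and the 9.

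Among the 23 genes past the threshold the largest differences were those of Trim10, Slc4a1 and Car2, genes of red blood cells. Red cells carry haemoglobin and the band 3 anion exchanger in their membrane, and young red cells still hold the RNA for these proteins. Slc4a1, which encodes band 3, read 11.51, 11.06 and 11.95 on HDAd-gE3 replicates 2, 3 and 4, against 9.12, 8.98 and 9.66 on PBS replicates 1, 3 and 4. All 3 HDAd-gE3 arrays were higher than all 3 PBS arrays, and the gene rose 4.76-fold (log2 2.25 ± 0.295 SE, adjusted p = 0.0386). A second bright probe set of Slc4a1 differed by 2.25, and another, dim one by 0.03. Trim10, a RING finger protein of developing red cells, rose 5.55-fold, from 6.06, 5.58 and 6.08 with PBS to 8.33, 7.97 and 8.83 with HDAd-gE3 (2.47 ± 0.318, adjusted p = 0.0371). Car2, a carbonic anhydrase abundant in red cells though not limited to them, rose from 10.51, 10.44 and 10.78 to 12.22, 12.12 and 12.47 (1.69 ± 0.212, adjusted p = 0.0369). Slc25a37, mitoferrin, which brings iron into mitochondria for haem synthesis, rose from 10.80, 10.57 and 10.87 to 11.76, 11.65 and 11.55 (0.90 ± 0.115, adjusted p = 0.037). In none of these 4 genes did the groups overlap, as in all 23 calls.

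The HDAd-0 means lay between those of the other groups in the same 4 genes. Slc4a1 read 11.17, 10.33 and 10.39 on HDAd-0 replicates 3, 4 and 5, and Trim10 8.10, 7.06 and 7.05. Replicate 3 was the highest of its group and reached the range of the HDAd-gE3 arrays in both. Between the vectors, HDAd-gE3 minus HDAd-0 was 0.88 ± 0.295 for Slc4a1 and 0.98 ± 0.318 for Trim10, and neither passed (adjusted p = 0.312 and 0.299). HDAd-0 minus PBS was 1.38 for Slc4a1 and 1.497 for Trim10. The comparisons share arrays, so these values are set side by side only.

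Of the 13 genes on a red cell list, 7 had a usable probe set. Slc4a1 was the only one of the 7 to pass (0.077% of all genes were called higher). A higher mean was seen in 6 of 7 (45.4% of all genes), and the median difference was 1.25 against -0.015 for all genes. Leaving out HDAd-gE3 replicate 4 gave a median of 0.70, and leaving out HDAd-gE3 replicate 3 gave 1.90. Epb42, which anchors band 3 to the membrane skeleton, was near 5 with PBS (4.94, 4.64 and 5.22) and read 7.23, 6.80 and 7.89 with HDAd-gE3. Its difference of 2.37 ± 0.363 missed the threshold (adjusted p = 0.0689). Alas2, the first enzyme of haem synthesis in red cells, differed by 1.04 ± 0.172 (adjusted p = 0.0847) with groups that did not overlap, from 11.47, 11.42 and 11.66 to 12.93, 12.49 and 12.27. Bpgm, which makes the red cell's 2,3-bisphosphoglycerate, differed by 0.63 ± 0.113 (adjusted p = 0.086). The transcription factor Klf1 and the ammonium channel Rhag, both of red cell precursors, were high on 1 array only. Klf1 read 6.25, 5.58 and 8.80 with HDAd-gE3 and Rhag 3.27, 3.30 and 5.98, against at most 5.95 and 2.71 with PBS. Hba-a1 was the list's exception, at 3.34 to 3.74 on the HDAd-gE3 and PBS arrays, close to the lowest signals on the arrays, and its difference was -0.25. Tspo2, a membrane protein of late red cell precursors, differed by 1.71 (adjusted p = 0.0689) and Ube2o, a ubiquitin enzyme of reticulocytes, by 1.06 (0.0847). These 2 were chosen after their values were seen.

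Factors of the GATA family drive many red cell genes and bind the letters AGATAA. Of the 7 list members and the called genes Trim10, Car2 and Slc25a37, 7 had a promoter in the RefSeq table of mouse promoters (GRCm38.p6). In the 250 bases before the gene start, 3 of these 7 held AGATAA on either strand, as did 9.99% of 32851 promoters. The 3 are printed because they belong to the genes with large differences above, with the match in capitals, read 5' to 3' on the strand of the gene. All 3 matches lie on the opposite strand and so read TTATCT. They lie at chr17:36869324-36869573 (plus strand, Trim10), chr2:121036878-121037127 (minus strand, Epb42) and chrX:150547167-150547416 (plus strand, Alas2).
Trim10: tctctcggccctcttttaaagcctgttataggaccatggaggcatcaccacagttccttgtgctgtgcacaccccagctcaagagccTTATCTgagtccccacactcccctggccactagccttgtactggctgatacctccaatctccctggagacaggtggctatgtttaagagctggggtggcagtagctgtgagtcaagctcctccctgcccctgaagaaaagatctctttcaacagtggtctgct
Epb42: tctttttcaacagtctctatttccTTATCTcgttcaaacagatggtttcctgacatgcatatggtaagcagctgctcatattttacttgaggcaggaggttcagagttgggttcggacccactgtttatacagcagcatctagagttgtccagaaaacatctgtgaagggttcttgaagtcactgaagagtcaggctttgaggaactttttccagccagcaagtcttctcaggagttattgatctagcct
Alas2: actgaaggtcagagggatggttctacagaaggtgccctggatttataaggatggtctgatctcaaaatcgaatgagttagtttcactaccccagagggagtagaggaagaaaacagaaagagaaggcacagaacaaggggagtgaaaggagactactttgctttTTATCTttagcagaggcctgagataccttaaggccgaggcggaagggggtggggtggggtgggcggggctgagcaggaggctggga
The match ended 157 bases before the gene start in Trim10, 220 in Epb42 and 80 in Alas2. It is a match of letters only, and binding was not measured.

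Neutrophil genes differed beside the red cell genes. None of the 13 measured members of the neutrophil list passed, 12 of 13 had a higher mean, 10 of 13 had all HDAd-gE3 arrays above all PBS arrays (10.8% of all genes) and the median difference was 0.77. The exception was Lcn2, lipocalin-2, at -0.15 ± 0.099 (adjusted p = 0.551), with every HDAd-gE3 array below every PBS array. The list's mean level was 9.04 to 10.15 on the HDAd-gE3 arrays, 8.21 to 8.79 on the HDAd-0 arrays and 8.37 to 8.65 on the PBS arrays. For HDAd-0 minus PBS the list median was 0.039. Camp, the antimicrobial peptide of neutrophil granules, read 9.46, 9.64 and 11.91 with HDAd-gE3 and 8.30, 8.13 and 7.51 with PBS (difference 2.36 ± 0.577, adjusted p = 0.172). Mpo, the myeloperoxidase made in neutrophil precursors, read 6.47, 6.22 and 9.69 against 5.02, 4.96 and 5.09 (2.44 ± 0.795, adjusted p = 0.263). In both, replicate 4 stood more than 2 above the other HDAd-gE3 arrays, and without it the list median was 0.43. S100a9, a gene of mature cells, varied less between the arrays than Camp and Mpo. It read 13.64, 13.75 and 13.89 with HDAd-gE3 and 13.35, 13.30 and 13.14 with PBS (0.50 ± 0.144, adjusted p = 0.23). Of the other members, Mmp9 differed by 0.77 (adjusted p = 0.352) and Cxcr2 by 0.38 (0.609). Without HDAd-gE3 replicate 4 Slc4a1 still differed by 2.03 and Trim10 by 2.25, though neither then passed (adjusted p = 0.116 for each). Platelet genes had a higher mean in 9 of 9, with a median of 0.22 (0.143 without HDAd-gE3 replicate 2, 0.335 without HDAd-gE3 replicate 4 and 0.339 without PBS replicate 4), none passed, and their level overlapped between the groups (8.58 to 9.13 with HDAd-gE3, 8.48 to 8.95 with PBS). Proliferation genes had a higher mean in 16 of 19 with a median of 0.29, which was 0.036 without HDAd-gE3 replicate 4. In pooled tissue, more cells of a type and more RNA per cell cannot be told apart, and the part of blood left in the vessel in these values was not tested.

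**Figure D2:**
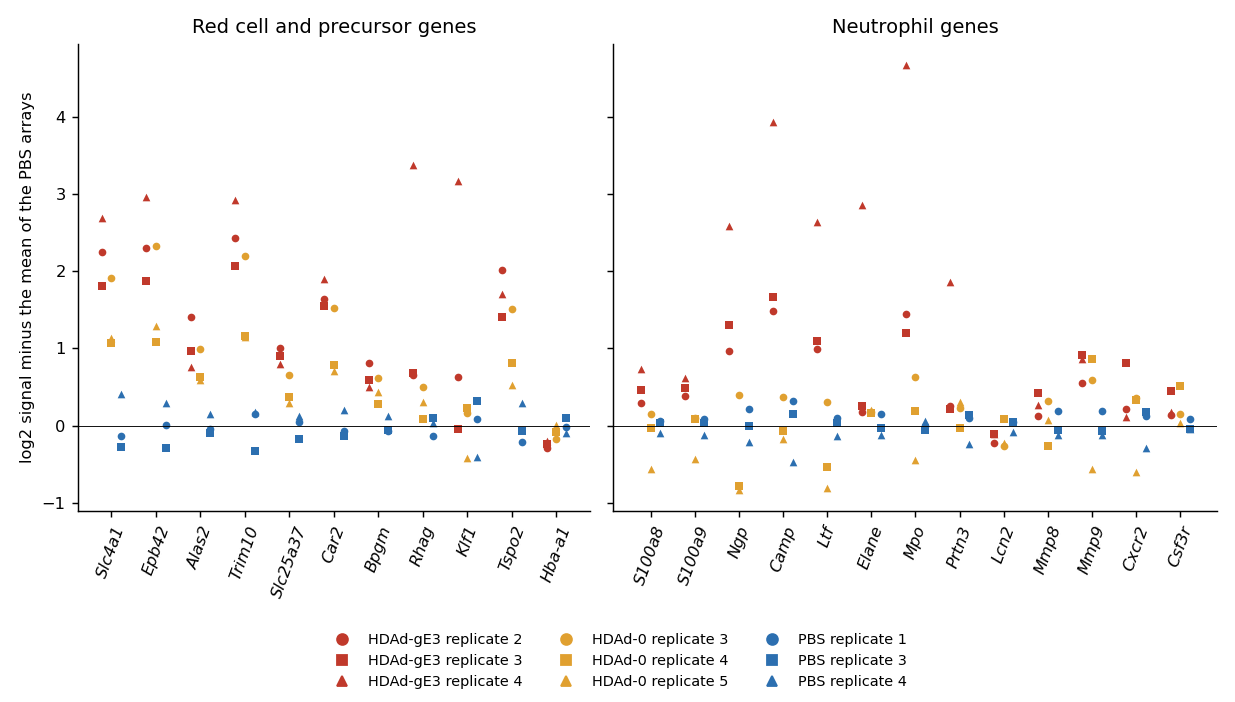
Each marker is 1 array's log2 signal minus the mean of the PBS arrays (y axis) for 11 red cell and precursor genes (left) and the 13 neutrophil genes (right), coloured by group and shaped by replicate. Slc4a1, Trim10 and Car2 are higher on all 3 HDAd-gE3 arrays than on any PBS array, while Klf1, Rhag, Camp and Mpo are far highest on HDAd-gE3 replicate 4.

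The other genes that rose have varied roles. Apol11b, a member of the apolipoprotein L family, rose 2.42-fold, from 10.84, 10.79 and 11.15 with PBS to 12.14, 12.13 and 12.32 with HDAd-gE3 (1.27 ± 0.135, adjusted p = 0.031). HDAd-0 read 12.12, 11.69 and 11.76, and a second Apol11b probe set differed by 1.37. Slc7a5, which carries large neutral amino acids into cells, rose from 9.27, 9.25 and 9.23 to 9.91, 9.78 and 9.93 (0.63 ± 0.066, adjusted p = 0.031). Ppp1r15a, a stress-induced subunit that turns the phosphatase on initiation factor eIF2, rose from 8.53, 8.39 and 8.44 to 9.10, 8.95 and 9.16 (0.62 ± 0.075, adjusted p = 0.0324). Camk2b, a subunit of the calcium and calmodulin-dependent kinase, rose from 8.44, 8.42 and 8.27 to 8.96, 9.15 and 9.24 (0.74 ± 0.085, adjusted p = 0.0315). In these 4 genes the HDAd-0 mean lay between the means of the other groups, nearer to HDAd-gE3 for Apol11b and Slc7a5 and nearer to PBS for Camk2b.

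Fam117a rose by 0.79 (adjusted p = 0.0369), Pcp4l1, a relative of a calmodulin-binding peptide, by 0.69 ± 0.094 (0.0444) and Ccndbp1, a cyclin D-binding protein, by 0.66 ± 0.080 (0.0325). The predicted gene Gm9706 rose by 0.82 (adjusted p = 0.031) at a low level, with 6.64 to 6.83 against 5.78 to 6.02. Lrrc17, a leucine-rich repeat protein, rose by 0.71 ± 0.086 (adjusted p = 0.0324) on its bright probe set, while a dim one differed by -0.08. Sphk2, which makes the lipid signal sphingosine-1-phosphate, rose by 0.60 ± 0.067 (adjusted p = 0.031) on its brighter probe set, from 10.30, 10.27 and 10.35 to 10.98, 10.78 and 10.95. A second Sphk2 probe set went the other way, at -0.30 ± 0.091, so the probe sets of this gene disagree. HDAd-0 read 10.97, 10.90 and 10.99 on the brighter one and overlapped HDAd-gE3.

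Among the genes that fell, Coch had the smallest p of all genes. It encodes cochlin, a secreted protein of the extracellular matrix best known from the inner ear. It read 8.70, 8.85 and 8.60 with PBS and 7.25, 7.56 and 7.53 with HDAd-gE3, a 2.41-fold decrease (-1.27 ± 0.099, adjusted p = 0.0129). HDAd-0 read 8.52, 8.46 and 8.58, just under the PBS arrays and far from HDAd-gE3. Coch was the 1 gene of the series to differ between HDAd-gE3 and HDAd-0 past the threshold (1 of 18193, 0.0055%; difference -1.08 ± 0.099, adjusted p = 0.0486). The call against PBS was lost without HDAd-gE3 replicate 3 (adjusted p = 0.0566) and when PBS replicate 1 (0.0845), 3 (0.091) or 4 (0.0572) was dropped, at differences of -1.33 to -1.20.

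Aoah and Ccl24, both made by myeloid cells, also fell. Aoah, acyloxyacyl hydrolase, removes fatty acids from endotoxin and so inactivates it. It fell from 9.32, 9.42 and 9.46 with PBS to 8.81, 8.76 and 8.65 with HDAd-gE3 (-0.66 ± 0.073, adjusted p = 0.031). HDAd-0 overlapped PBS at 9.37, 9.40 and 9.23, and its difference from HDAd-gE3 was -0.59 ± 0.073 (adjusted p = 0.191). A second probe set of Aoah differed by -0.52 and another, dim one by 0.22. Ccl24, eotaxin-2, a chemokine that attracts eosinophils, fell from 6.91, 7.18 and 7.42 to 6.20, 5.83 and 5.88 (-1.20 ± 0.141, adjusted p = 0.0315). HDAd-0 read 6.92, 6.74 and 6.75, and its difference from HDAd-gE3 did not pass (-0.83 ± 0.141, adjusted p = 0.191). Lonrf3, a protein with RING fingers, fell from 9.52, 9.53 and 9.61 to 8.96, 8.69 and 8.88 (-0.71 ± 0.079, adjusted p = 0.031), with HDAd-0 between them at 9.23, 9.26 and 9.12. The predicted gene Gm14057 fell by 0.82 on the log2 scale (adjusted p = 0.0315), with HDAd-0 at the level of HDAd-gE3.

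**Figure D3:**
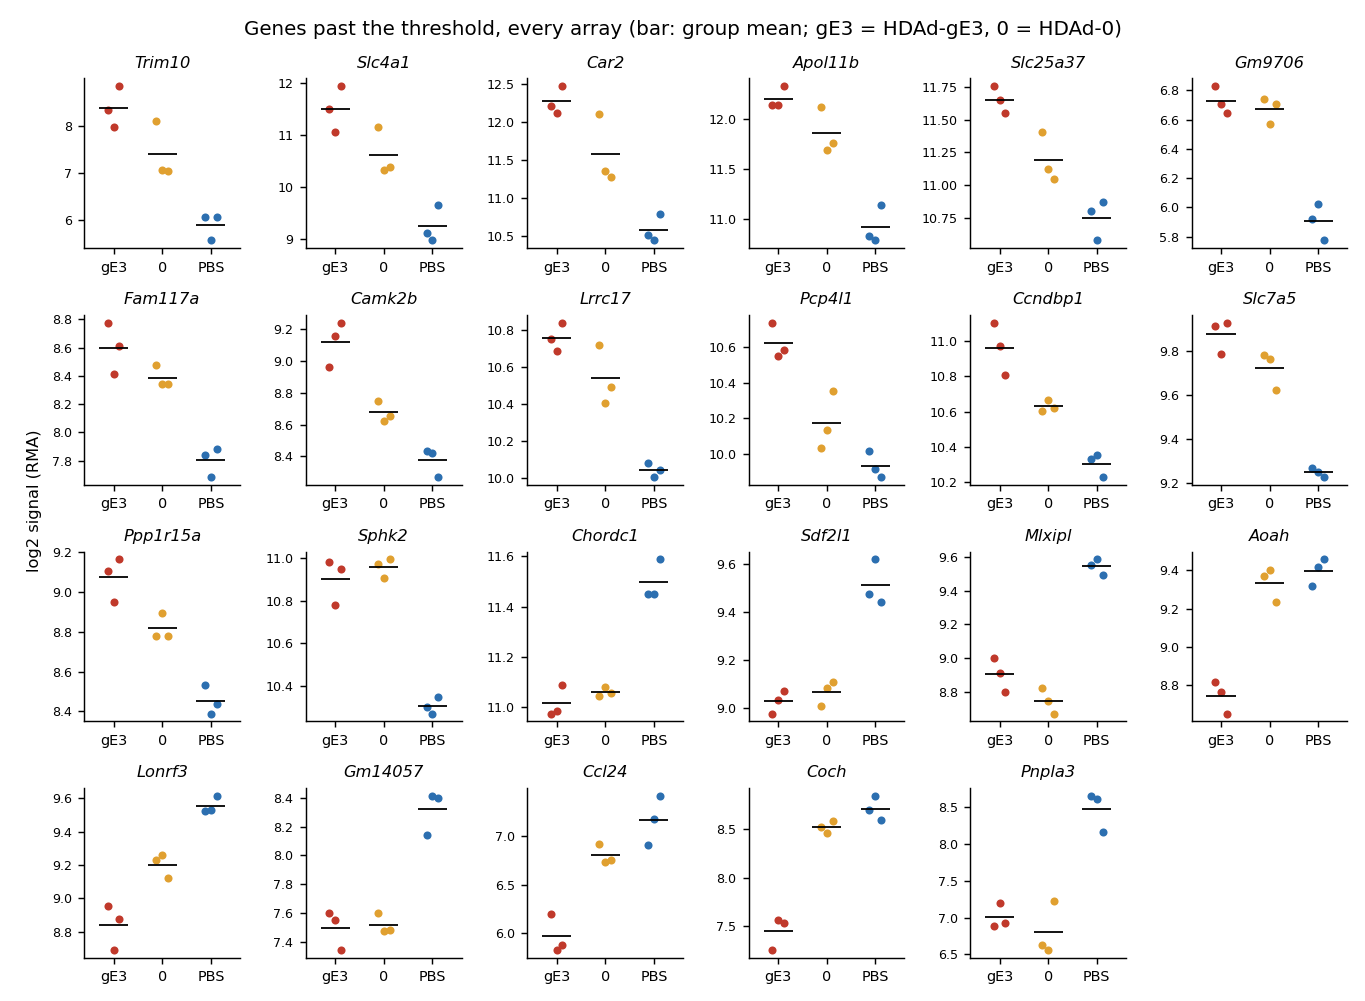
Each panel is 1 of the 23 genes past the threshold, with a point per array (3 a group), a bar at the group mean and the log2 signal on the y axis, which starts at a different level in each panel. Coch and Aoah are low only on the HDAd-gE3 arrays, while Mlxipl, Pnpla3, Chordc1 and Sdf2l1 are low on the arrays of both vectors.

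Genes of fatty acid synthesis included 2 that fell, the transcription factor Mlxipl and its target Pnpla3. Mlxipl, known as ChREBP, turns on lipid synthesis when glucose is plentiful, and Pnpla3 is a lipid droplet protein. Mlxipl fell from 9.56, 9.59 and 9.49 with PBS to a range of 8.80 to 9.001 with HDAd-gE3 (-0.64 ± 0.071, adjusted p = 0.031). Pnpla3 fell 2.76-fold, from 8.65, 8.60 and 8.16 to 6.89, 7.20 and 6.92 (-1.47 ± 0.198, adjusted p = 0.0444). HDAd-0 overlapped HDAd-gE3 in both, at 8.82, 8.74 and 8.67 for Mlxipl and 6.63, 6.56 and 7.23 for Pnpla3. In this list, chosen with earlier results of these data known, 2 of 16 measured members passed (0.0495% of all genes were called lower). The count is thus a description only. A lower mean was seen in 13 of 16 (54.6% of all genes), and the median was -0.11. Dropping HDAd-gE3 replicate 3 gave -0.067, and dropping PBS replicate 3 gave -0.055. The enzymes of the pathway differed little. Fasn, the fatty acid synthase, differed by -0.03 ± 0.112, Acaca, acetyl-CoA carboxylase, by -0.11 ± 0.105 and Scd1, the desaturase, by 0.03 ± 0.050, and in each the groups overlapped. Acly, ATP citrate lyase, differed by -0.17 ± 0.054 (adjusted p = 0.256) and Srebf1, the other main regulator of this pathway, by -0.38 ± 0.072 (adjusted p = 0.0917). Srebf1 read 10.82, 10.83 and 10.82 with HDAd-gE3, below the 11.26, 11.29 and 11.09 with PBS. Most of these genes are also expressed by the fat around the aorta. The white fat list, led by Lep (difference -0.98, adjusted p = 0.256), had a median of 0.027 (-0.043 without PBS replicate 4 to 0.078 without PBS replicate 1) and overlapping levels of 11.10 to 11.26 and 11.08 to 11.33. The brown fat list had a median of 0.158 (-0.007 to 0.24 with each array left out). The part of fat in the differences of the lipid genes was not tested.

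Among chaperone genes 2 fell, 1 of the cytosol and 1 of the endoplasmic reticulum. Chordc1, a partner of the chaperone HSP90, fell from 11.45, 11.45 and 11.59 with PBS to 10.97, 10.98 and 11.09 (-0.48 ± 0.062, adjusted p = 0.0371). Sdf2l1, which works with the chaperone BiP in the endoplasmic reticulum, fell from 9.48, 9.62 and 9.44 to 8.98, 9.04 and 9.07 (-0.48 ± 0.066, adjusted p = 0.0461). The HDAd-0 arrays overlapped HDAd-gE3 in both, at 11.04, 11.08 and 11.05 for Chordc1 and 9.01, 9.08 and 9.11 for Sdf2l1.

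Sdf2l1 belongs to the unfolded protein response, by which cells make more chaperones when proteins misfold in the endoplasmic reticulum. Of its 17 measured genes 1 passed (0.0495% of all genes were called lower) and 13 had a lower mean (54.6% of all genes). A lower mean at an unadjusted p under 0.05 was found in 9 (7.27% of all genes). The median was -0.15 (-0.17 to -0.14 with each array left out). The list's mean level was 10.83 to 10.89 with HDAd-gE3 and 10.98 to 11.07 with PBS, without overlap. Creld2 differed by -0.52 ± 0.097 (adjusted p = 0.0917), from 10.69, 10.82 and 10.61 to 10.04, 10.19 and 10.33. Hspa5, which encodes BiP itself, differed by -0.27 ± 0.066 (adjusted p = 0.172), from 13.06, 13.10 and 13.06 to 12.77, 12.77 and 12.87. Hyou1 differed by -0.32 (adjusted p = 0.103) and Manf by -0.36 (0.233), with non-overlapping groups in both. Of the arm of the response that works through Atf4, Ppp1r15a and Slc7a5, known targets that are not on this list, rose as given above. Atf4 itself differed by 0.02 ± 0.053 and another target, Ddit3, by 0.04 ± 0.103, with overlapping groups, while Trib3 differed by -0.24 ± 0.096 (adjusted p = 0.341). HDAd-0 minus PBS was -0.59 for Creld2, -0.24 for Hspa5 and -0.32 for Hyou1.

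A known element of such promoters is the ER stress response element, CCAAT followed after 9 bases of any kind by CCACG. Among the 15 genes of the list with a promoter in the RefSeq table, 6 held it on either strand within 250 bases before the start (Calr, Creld2, Dnajc3, Hsp90b1, Hspa5 and Pdia6), as did 0.113% of all promoters. Those of Hspa5 and Creld2 are shown because both genes were lower on all 3 HDAd-gE3 arrays, with the element in capitals. They lie at chr2:34771840-34772089 and chr15:88819396-88819645 (GRCm38.p6, plus strand), and in Creld2 the element lies on the opposite strand.
Hspa5: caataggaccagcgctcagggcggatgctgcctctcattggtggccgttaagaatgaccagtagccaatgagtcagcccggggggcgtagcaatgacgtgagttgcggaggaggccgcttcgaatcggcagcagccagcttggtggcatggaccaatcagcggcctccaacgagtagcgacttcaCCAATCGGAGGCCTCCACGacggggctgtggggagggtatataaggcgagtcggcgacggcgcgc
Creld2: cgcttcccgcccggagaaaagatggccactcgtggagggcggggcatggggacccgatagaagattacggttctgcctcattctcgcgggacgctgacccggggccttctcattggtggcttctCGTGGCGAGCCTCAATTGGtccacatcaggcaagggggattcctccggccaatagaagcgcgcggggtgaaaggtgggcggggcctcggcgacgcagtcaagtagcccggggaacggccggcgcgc
Among the others that held the element, Dnajc3 differed by -0.15 (adjusted p = 0.384) without overlap, and Calr, Hsp90b1 and Pdia6 by 0.02, -0.03 and 0.04 with overlap. Sdf2l1, which passed, had no match in this window. Factor binding was not measured.

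The heat shock and co-chaperone list, the cytosolic counterpart, had 1 of 19 members past the threshold (Chordc1), where 0.0495% of all genes were called lower. A lower mean was seen in 16 of 19 (54.6% of all genes), and the median was -0.11. Without HDAd-gE3 replicate 3 the median was -0.050 and without PBS replicate 4 it was -0.069. The list's level was 11.45 to 11.58 with HDAd-gE3, 11.38 to 11.55 with HDAd-0 and 11.65 to 11.72 with PBS. For HDAd-0 minus PBS the list median was -0.226. Hspa4l differed by -0.29 ± 0.063 (adjusted p = 0.135) and the J-protein Dnaja1 by -0.26 ± 0.076 (0.234), with non-overlapping groups. The small heat shock protein Hspb1 differed by -0.34 ± 0.135 (0.338) and Hsph1 by -0.16 ± 0.076 (0.416), also without overlap. In other members the groups overlapped: the inducible Hspa1a read 8.80, 8.28 and 8.85 with HDAd-gE3 and 8.78, 8.61 and 9.40 with PBS, and Hspa1b, Dnajb1, Hspa8 and Hsp90aa1 also overlapped.

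Clock genes had differences of either sign. In the circadian clock the activators Arntl (BMAL1), Clock and Npas2 switch on the repressors of the Per, Cry and Nr1d families and output genes such as Dbp, each peaking at its own time of day. None passed. The labels do not say at what hour the mice were killed, and an hour that differed by group cannot be told apart from the treatment. Arntl read 8.00, 8.38 and 8.33 with HDAd-gE3 and 8.91, 8.97 and 9.01 with PBS (-0.73 ± 0.183, adjusted p = 0.183). Npas2 differed by -0.48 ± 0.239 (adjusted p = 0.433) and Clock by -0.24 ± 0.062 (0.204), all 3 activators with every HDAd-gE3 array below every PBS array, as in 13.2% of all genes. Dbp read 12.69, 12.59 and 12.69 against 12.22, 12.15 and 12.15 (0.48 ± 0.068, adjusted p = 0.0547). A dimmer Dbp probe set differed by 0.78 and passed in a fit over all probe sets (adjusted p = 0.0396). Nr1d1, which represses Arntl, read 10.61, 10.66 and 10.54 against 9.86, 9.86 and 9.76 (0.78 ± 0.179, adjusted p = 0.151). Ciart differed by 0.40 ± 0.079 (adjusted p = 0.103) and Per1 by 0.54 ± 0.167 (0.247), while Per2 and Per3 differed by -0.15 and 0.13. Cry1, a repressor, differed by -0.75 ± 0.124 (adjusted p = 0.0847), with 9.62, 9.66 and 9.87 against 10.47, 10.40 and 10.53. HDAd-0 minus PBS was -1.04 for Arntl, 0.60 for Nr1d1, 0.49 for Dbp and -0.52 for Cry1. Over both lists the core clock had 7 of 13 members with a higher mean and the outputs 8 of 12 (45.4% of all genes). An unadjusted p under 0.05 was found in 4 core clock members with a higher mean and in 3 with a lower one. For the outputs these counts were 2 and 1, and the shares of all genes were 5.94% and 7.27%.

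Clock activators bind the E-box CACGTG. Of 21 clock and output genes with a promoter in the table, 6 held it within 250 bases before the start (Bhlhe41, Ciart, Cry1, Per1, Tef and Tspan4), as did 6.02% of all promoters. The motif reads the same on both strands. Ciart, shown with its 3 copies in capitals, lies at chr3:95882229-95882478 (GRCm38.p6, minus strand).
Ciart: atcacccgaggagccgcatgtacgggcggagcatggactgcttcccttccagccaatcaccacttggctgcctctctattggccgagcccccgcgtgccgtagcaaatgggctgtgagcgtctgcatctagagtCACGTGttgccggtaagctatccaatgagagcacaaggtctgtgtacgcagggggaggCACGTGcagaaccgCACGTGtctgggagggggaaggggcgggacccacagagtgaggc
Of these 6, Per1, Ciart, Tef (0.147), Tspan4 (0.105) and Bhlhe41 (0.041) had a higher mean with HDAd-gE3 and Cry1 a lower one, and none passed.

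Targets of the glucocorticoid receptor and immediate early genes, both known to answer to stress, held no gene past the threshold. Fkbp5, a chaperone of that receptor and one of its strongest targets, read 9.79, 9.70 and 9.74 with HDAd-gE3 and 10.68, 10.54 and 10.55 with PBS (-0.85 ± 0.154, adjusted p = 0.0872). A dimmer Fkbp5 probe set differed by -0.96 and passed in the fit over all probe sets (adjusted p = 0.0438), and the dimmest differed by -0.067. Zbtb16 differed by -0.38 (adjusted p = 0.194) and the metallothionein Mt1 by -0.33 (0.0957). A dim second probe set of Mt1 had the opposite sign, at 0.41 ± 0.536, as did the mean of both, at 0.04. The count of 8 of 14 targets with a lower mean is near the 54.6% of all genes. Of the immediate early genes 14 of 16 had a higher mean, with a median of 0.12 that was 0.064 without PBS replicate 4. The orphan receptor Nr4a1 read 10.75, 10.14 and 10.70 against 9.30, 9.17 and 9.62 (1.17 ± 0.212, adjusted p = 0.0872). Its relatives Nr4a3 and Nr4a2 differed by 0.75 (adjusted p = 0.141) and 0.37 (0.139), also without overlap. Other probe sets of Nr4a2 differed by 0.72, 0.78 and 0.43, and its dimmest by -0.26 and -0.07. Dim ones of Nr4a3 differed by -0.07 and 0.01.

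**Figure D4:**
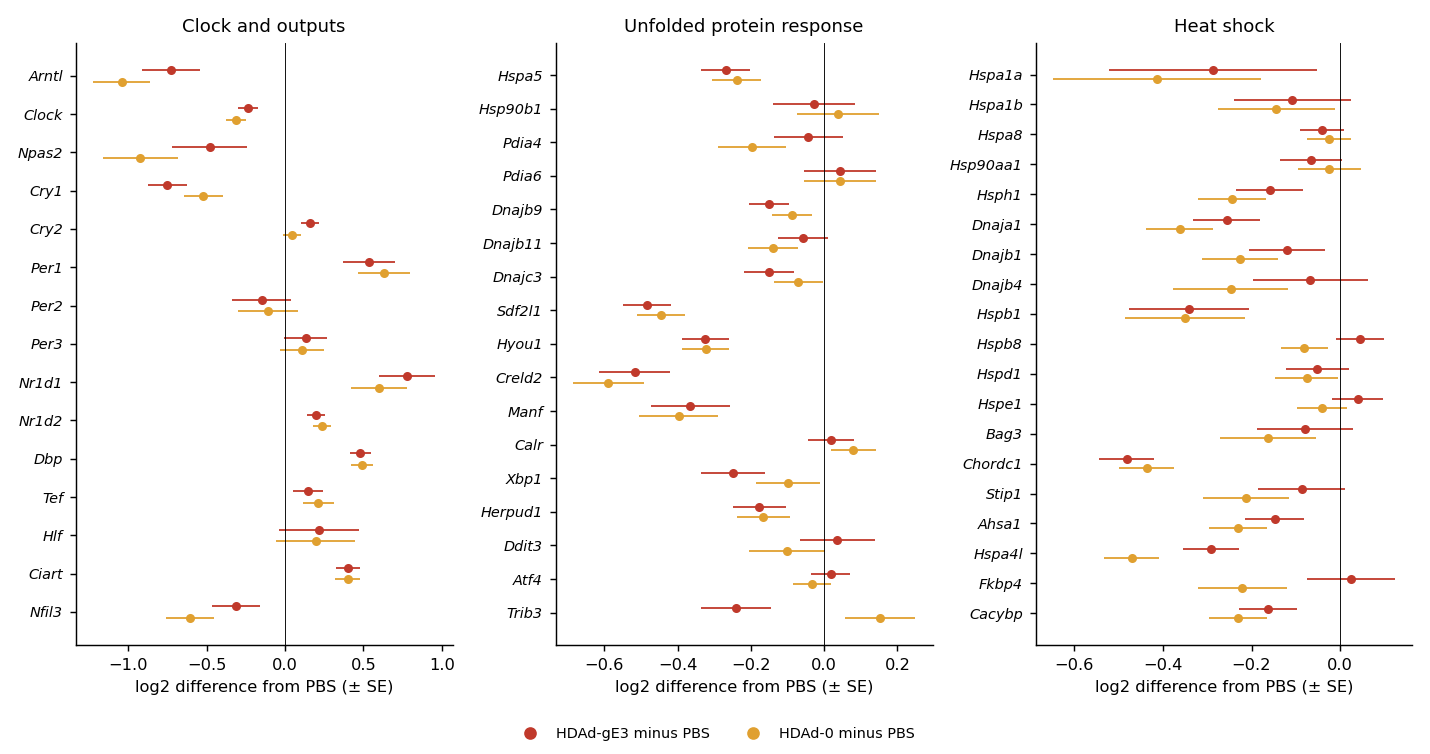
Points are log2 differences from PBS with their standard errors (x axis) for clock genes, the unfolded protein response and heat shock genes (rows), red for HDAd-gE3 and yellow for HDAd-0, 3 arrays a group; both share the PBS arrays. Arntl and Cry1 lie below 0, Nr1d1 and Dbp above it, and Sdf2l1, Creld2 and Chordc1 below it in both.

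Interleukin-7, a growth factor for lymphocytes, is named in the title of the series together with monocyte and macrophage arrest on the endothelium. Il7 read 7.40, 7.45 and 7.54 with HDAd-gE3 and 7.79, 7.56 and 7.61 with PBS, a difference of -0.19 that did not pass (adjusted p = 0.429), although the groups did not overlap. Its receptor chain Il7r read 11.85, 11.92 and 11.85 against 12.09, 12.11 and 12.22 (-0.27 ± 0.071, adjusted p = 0.205). Jak1, a kinase that carries the receptor's signal, differed by 0.23 (adjusted p = 0.198), and by -0.04 on another probe set. Of 13 pathway genes with a probe set, 6 had a higher and 7 a lower mean, and none passed.

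Macrophage markers had a lower mean in 21 of 25 genes, with a median of -0.092 (-0.104 to -0.069 with each array left out), and none passed. Their level was 11.56 to 11.61 with HDAd-gE3, 11.65 to 11.67 with PBS and 11.74 to 11.82 with HDAd-0, without overlap. Ms4a6d differed by -0.24 ± 0.056 (adjusted p = 0.163), Adgre1, the F4/80 antigen, by -0.25 (0.338) and Cd68 by -0.13 ± 0.059 (0.394). The most abundant, Lyz2, differed by -0.01 ± 0.051. The monocyte receptors Ccr2 and Cx3cr1 were exceptions at 0.31 and 0.29, with overlapping groups. Itgax, the integrin CD11c, had every HDAd-gE3 array below every PBS array (-0.32 ± 0.064, adjusted p = 0.103). Hk3, the hexokinase of myeloid cells, differed by -0.58 (adjusted p = 0.0671).

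Foam cell and lysosome genes had a lower mean in 16 of 21, with a median of -0.072 that was -0.047 without HDAd-gE3 replicate 2. Plin2, which coats lipid droplets, differed by -0.23 ± 0.056 (adjusted p = 0.167) and the scavenger receptor Msr1 by -0.19 ± 0.065 (0.29), whereas Marco, another scavenger receptor, was higher in mean by 0.41 (0.286). Abca1, the exporter of cholesterol from macrophages and a target of the sterol receptor LXR, differed by -0.17 ± 0.055 (adjusted p = 0.26). LXR targets had a lower mean in 9 of 13 and genes of cholesterol synthesis and uptake in 7 of 14. Apod, an apolipoprotein made in tissues, differed by -0.58 ± 0.108 (adjusted p = 0.0917), with 11.74, 11.42 and 11.41 against 12.14, 12.01 and 12.15.

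Endotoxin sensing genes, Aoah among them, had 1 of 11 past the threshold (0.0495% of all genes were called lower). A lower mean was seen in 8 of 11 (54.6% of all genes), and the median was -0.11, which was -0.185 without PBS replicate 4. Tlr4, the endotoxin receptor, read 10.58, 10.78 and 10.72 with HDAd-gE3 and 10.99, 11.06 and 11.10 with PBS (-0.36 ± 0.072, adjusted p = 0.105). Chemokines and receptors had a lower mean in 18 of 29 (54.6% of all genes), with 7 lower at an unadjusted p under 0.05 (7.27% of all genes). Their median was -0.058, and -0.116 without HDAd-gE3 replicate 3. Ccl24, described above, is not on that list. Ccl3 read 10.15, 10.55 and 10.29 against 10.79, 10.97 and 10.98 (-0.58 ± 0.112, adjusted p = 0.093), and Cxcl1, which draws neutrophils, differed by -0.47 (0.276).

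Antiviral and antigen presentation genes held no call. Among 23 interferon-stimulated genes 13 had a higher mean and the median was 0.007 (-0.038 without HDAd-gE3 replicate 3 to 0.039 without replicate 2). Rsad2 (viperin) read 12.84, 12.78 and 12.70 with HDAd-gE3 and 11.98, 11.98 and 12.23 with PBS (0.70 ± 0.121, adjusted p = 0.0847), and Oas3 and Mx1 differed by 0.71 (0.243) and 0.39 (0.21). Most others, such as Ifit1 (-0.11), Irf7 (0.01) and Usp18 (0.03), overlapped between the groups. Ciita, which switches on MHC class II genes, differed by 0.52 ± 0.107 (adjusted p = 0.112) and the immunoproteasome gene Psmb9 by 0.50 ± 0.118 (0.157). Dimmer Ciita probe sets differed by 0.037 and 0.189. The MHC class II list had a higher mean in 8 of 11 (45.4% of all genes) and a median of 0.082. Its members H2-Aa, H2-Ab1 and Cd74 differed by 0.082, 0.055 and 0.074, and Ctss, Cd86 and Cd80 had lower means. The MHC class I list, with Psmb9, had a higher mean in 7 of 9 and a median of 0.067.

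Endothelial genes had a higher mean in 22 of 28, with a median of 0.084 that was 0.055 without HDAd-gE3 replicate 3, and none passed. Esam, a junction protein, read 10.20, 10.13 and 10.19 with HDAd-gE3 and 9.96, 9.91 and 9.73 with PBS (0.31 ± 0.072, adjusted p = 0.157). The growth factor receptor Kdr differed by 0.42 ± 0.113 (adjusted p = 0.209) and Pecam1 by 0.29 ± 0.084 (0.231), while Vwf differed by 0.03 ± 0.064. HDAd-0 lay further from PBS than HDAd-gE3 did in Esam (10.39, 10.50 and 10.46) and Vwf (12.66, 12.48 and 12.66). Selp, the adhesion molecule P-selectin, had a lower mean with HDAd-gE3 on its brightest probe set (-0.24 ± 0.069, adjusted p = 0.223), while 2 dimmer ones differed by 0.099 and 0.025, so its direction depends on the probe set.

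Genes of the wall itself had small differences. The smooth muscle list had a higher mean in 15 of 18 and a median of 0.049, and none passed. With other processing of the same arrays the median was 0.01 to 0.071. Its level was 12.686 to 12.708 with HDAd-gE3, 12.653 to 12.68 with PBS and 12.549 to 12.556 with HDAd-0. The HDAd-gE3 and PBS levels thus nearly met. Acta2 and Myh11 differed by 0.01 ± 0.053 and 0.02 ± 0.070. Of 24 matrix genes 17 had a higher mean, none passed, and elastin (Eln) differed by 0.14 ± 0.085. The collagenase Mmp13 read 9.07, 9.25 and 9.16 with HDAd-gE3 and 10.17, 10.01 and 10.17 with PBS (-0.96 ± 0.233, adjusted p = 0.17). The inhibitor Timp4, also made by fat and heart, differed by -0.84 ± 0.207 (0.172).

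Markers of tissues that can come with the cut piece varied between arrays of 1 group. The heart's slow myosin Myh7 read 10.04, 9.11 and 7.57 with HDAd-gE3 and 11.16, 10.95 and 10.08 with PBS (-1.82 ± 0.625, adjusted p = 0.28), and cardiac genes had a level of 10.51 to 11.81 against 11.35 to 11.48. The cardiac median of -0.16 became 0.085 when HDAd-gE3 replicate 4 was dropped and -0.409 when replicate 2 was. Albumin (Alb) read 9.74, 10.47 and 9.21 against 8.76, 8.21 and 8.27, while Hp and Cyp2e1 of the same liver list had lower means, by -0.22 and -0.31. The liver list median was 0.283 for HDAd-gE3 minus PBS and 1.237 for HDAd-0 minus PBS. Between HDAd-0 and PBS, Alb differed by 2.22 and Myh7 by -2.05. The pigment gene Tyrp1 read 6.14, 6.17 and 5.30 against 7.98, 7.90 and 7.47 (-1.91 ± 0.295, adjusted p = 0.0689). Lists of lymphocytes, dendritic cells, cytokines, adhesion, complement, proteases, cartilage, nerve, thymus and skeletal muscle held no gene past the threshold either. Inflammatory cytokines had a lower mean in 15 of 18, with Osm, oncostatin M, at -0.27 (adjusted p = 0.23), while Il1b was higher in mean by 0.41 (0.319). The plot of the gene lists shows all 44, and the red cell and neutrophil lists have the largest medians of the 44.

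**Figure D5:**
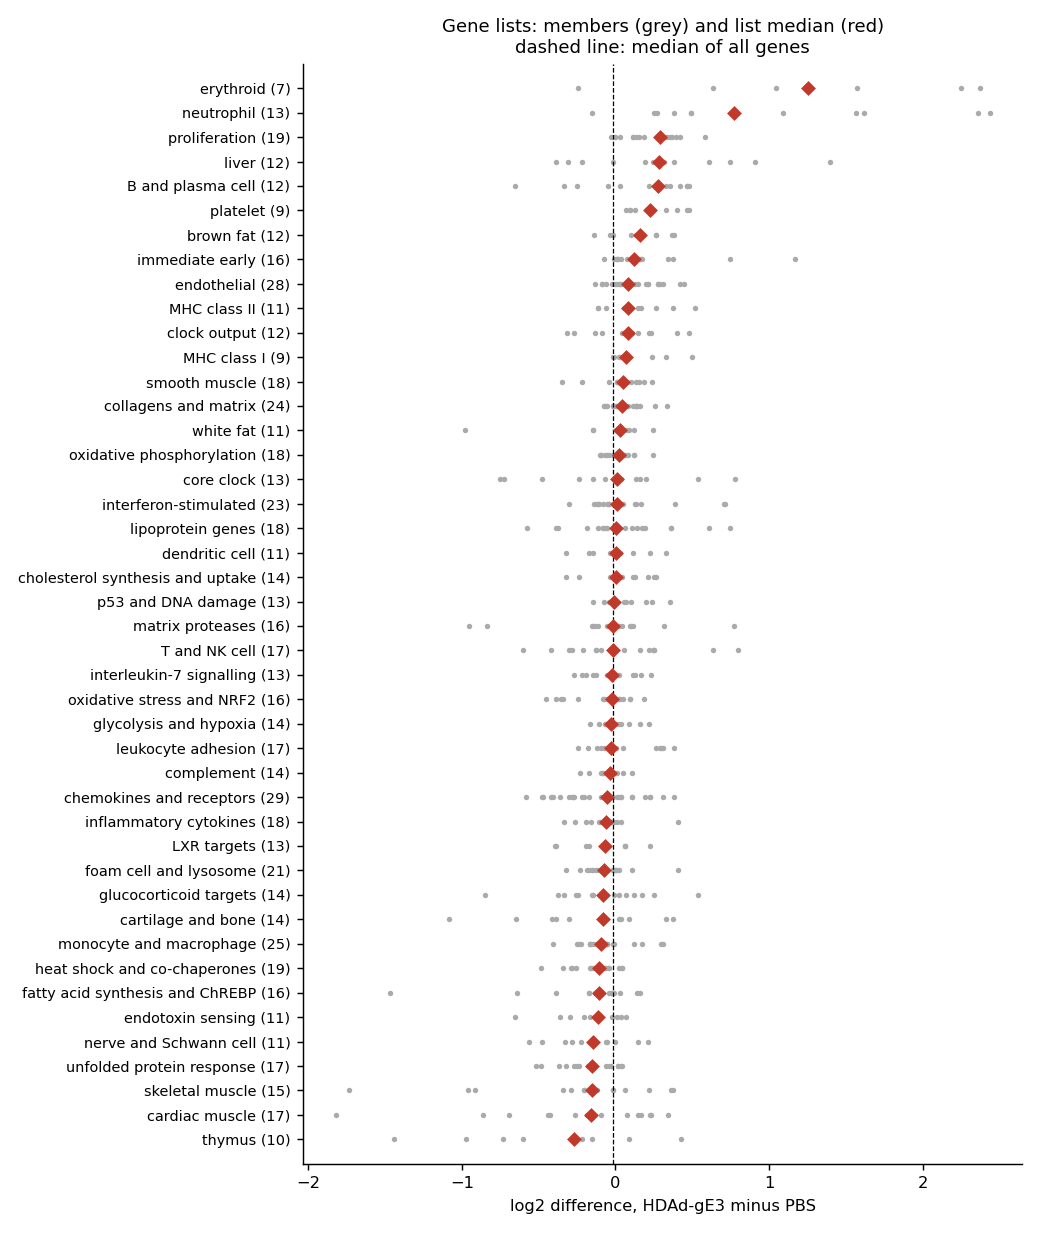
Each row is 1 of 44 gene lists with its number of measured genes, grey points are the members' log2 differences of HDAd-gE3 minus PBS (x axis), and red diamonds are list medians. The red cell (erythroid) and neutrophil medians, 1.25 and 0.77, lie farthest from the dashed line at -0.015, the median of all genes.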

How the data were processed

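Pooled aortic RNA was amplified (FL-Ovation) and biotin-labelled, per the labels' protocols, for 9 Affymetrix mouse arrays in 3 groups of 3. The authors deposited log2 values of 45101 probe sets in 1 table. The submitters' processing notes name RMA (version: not given in the sources used here). The log2 scale was read from the range of values, 1.98 to 14.7. Since RMA gives all arrays nearly the same distribution, a change common to most genes would be hidden. Groups and replicate numbers came from the labels. The titles' running numbers do not interleave between groups, so if they mark processing order, order and group cannot be told apart.

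By the platform annotation 34945 probe sets had 1 gene symbol, 932 had more, 9160 had no symbol and 64 were controls, and 34741 matched a RefSeq gene. The probe set with the highest mean stood for each gene, with no filter on dim genes. Models with a coefficient per group were fitted over all 9 arrays (limma 3.58.1, R 4.3.3, lmFit and eBayes) and adjusted by Benjamini-Hochberg over 18193 genes, a procedure also tested on simulated data. For single values, 3 arrays against 3 allow no exact permutation p below 0.1. The 44 lists hold 715 genes, 653 of them measured, 3 through a synonym. The members, lists and the rule for named genes were chosen with earlier results of these data known. The rule takes Apoe, Il7 and Il7r, 15 genes per direction by largest change among calls without overlap (then by smallest p among genes with a mean of at least 6), and up to 4 called or else 3 members per list. Clones and predicted genes are counted but skipped, though Gm9706 and Gm14057 are named as calls. Other genes named were chosen after their values were seen. The alternatives were median centring, a second quantile normalization, a filter on dim genes (mean under 5), the mean or the most variable of the probe sets, only the 6 arrays compared, an intensity trend, array weights, a replicate block, a covariate for the 3' minus 5' signal and leaving out each array.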

Additional observations from a re-analysis of the deposited data

How the results depend on the processing

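With 3 arrays a group, the counts of 14 higher and 9 lower genes depended on the model of the spread. They were 14 and 11 with median centring, 13 and 11 with a second quantile normalization, 19 and 14 with the filter on dim genes, 14 and 10 with the mean of probe sets, and 18 and 9 with the most variable one. They were 8 and 5 with only the 6 arrays compared, 48 and 41 with an intensity trend, 358 and 446 with array weights, 0 and 0 with the replicate block, and 0 and 3 with the 3' minus 5' covariate. Leaving out 1 array at a time gave 0 to 13 higher and 0 to 8 lower. At an unadjusted p under 0.05 the replicate block had 880 genes higher and 1298 lower. The groups share only the numbers 3 and 4, no label says that a number marks a shared batch, and deviations of same-numbered arrays correlated by 0.00596 and 0.028. All 23 calls kept their direction in all 19 alternatives. Of 2885 values of named genes, 2537 kept their direction and side of the threshold, 235 lost the call, 105 gained one and 8 changed sign. These were Apoe with the covariate (-0.171) and without HDAd-gE3 replicate 3 (-0.0, the lowest with 1 array left out, where the highest was 0.181), Nrde2 (-0.072), Ccdc134 (0.089), Mt1 (0.415) and Selp (0.025) with the most variable probe set, Mt1 with the mean of probe sets (0.04) and Myl1 with the block (-0.008). Of 836 list medians, 108 moved by more than the spread between replicates. Where no cause is plain from how an alternative is built, the cause was not tested. Dim probe sets, such as that of Hba-a1, limit what can be said of the genes they stand for.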

Other observations

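Genes outside the comparisons above were read in a few further lists. Of 18 genes of oxidative phosphorylation 10 had a higher mean with HDAd-gE3, with Uqcrc1 of complex III at 0.24 ± 0.130 (limma, adjusted p = 0.462). Of 16 genes of the NRF2 response 8 had a higher mean, and the aldehyde dehydrogenases Aldh3a1 and Aldh1a1 differed by -0.34 ± 0.083 (adjusted p = 0.172) and -0.36 ± 0.089 (0.177), each with all HDAd-gE3 arrays below all PBS arrays. Among brown fat genes Ucp1, the uncoupling protein, read 13.49, 13.45 and 13.37 with HDAd-gE3 and 13.22, 13.20 and 12.75 with PBS (0.38, adjusted p = 0.395). The cold-inducible RNA-binding protein gene Cirbp, chosen after its values were seen, read 9.33, 9.43 and 9.21 with HDAd-gE3, 9.62, 9.15 and 9.34 with HDAd-0 and 8.59, 8.73 and 8.74 with PBS (0.64 ± 0.118, adjusted p = 0.0916), so both vector groups lay above PBS.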
